A study of Mus musculus with 6 samples.

Results

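The genes described here are 9 members of the feedback circuit of bone morphogenetic protein (BMP) signalling: the inhibitor of DNA binding genes Id1, Id2, Id3 and Id4, the inhibitory Smad genes Smad6 and Smad7, and the antagonist genes Bambi, Nog and Grem1. All 9 were found by symbol among the 54532 genes of the deposited table. They were chosen by name for their role, but selected on earlier results of the same contrast, in which the FPKM value of Id2 was already known to rise. The contrast is therefore given for them as a description, without p-values. Where a member is said to be called, this states its side of the threshold and is no test of the selection. The cells were MC3T3-E1, a clonal pre-osteoblast line from mouse calvaria. All samples were kept for 3 days in osteogenic medium, which contained β-glycerophosphate, ascorbic acid and dexamethasone in both groups. The control group received this medium alone, with 3 samples, and the metformin group also received 0.2 mM metformin, a biguanide that lowers blood glucose, with 3 samples. The dose and the time are those of the study text, since the sample labels give neither. The study calls the samples of a group biological replicates, and all come from a single cell line, so p-values measure only the spread between samples of that line.

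BMP ligands bind serine/threonine kinase receptors that phosphorylate Smad1, Smad5 and Smad9, which enter the nucleus with Smad4 and switch on target genes. Id1, Id2 and Id3 are classical early targets. Their proteins carry a helix-loop-helix domain but no DNA-binding region, and they pair with basic helix-loop-helix factors such as the E proteins and keep them off DNA. Smad6 and Smad7 are induced by the same pathway and block the receptors or the receptor Smads, so they close a negative feedback loop. Bambi is a receptor-like membrane protein without a kinase domain, and noggin (Nog) and gremlin 1 (Grem1) are secreted proteins that bind BMP ligands outside the cell. In osteoblasts BMP signalling drives differentiation, and the antagonists limit it.

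The value of each gene was taken as FPKM, reads scaled by gene length and library size, from which whole reads could be recovered. The recovered totals were 18399861 to 20652437 reads per control sample and 19256672 to 22111790 per metformin sample, and intervals of such reads would cover counting error only. The metformin samples had Pearson correlations of log2 values across genes of 0.992 with each other. Control replicates 2 and 3 had a correlation of 0.988, while control replicate 1 stood apart, at 0.960 and 0.952. Across genes, its deviation from the other controls ran against GC content (Spearman's rho -0.668, a description over genes that share these libraries). For several of the called genes below in which it lay far from the other controls, a value without it is also given. All 9 osteoblast markers passed the limit of 0.5 mean FPKM, with a summed level of 10078 to 11832 FPKM in the controls and 6828 to 7222 with metformin. Spp1 was the largest part of this sum, with means of 7703 FPKM in the controls and 2704 with metformin. The fall of the sum therefore does not describe the markers as a set. Of the 9 markers, Col1a1 (1.86-fold, and 1.61-fold without control replicate 1) and Col1a2 rose, and Ibsp, Spp1 and Dmp1 fell. The other 4, Runx2, Sp7, Alpl and Bglap, were not called. Thus 22.2% were called higher and 33.3% lower, beside 13.2% and 9.28% of all tested genes. The list is short, and nothing is read from this count. Of 5 markers each, 2 adipocyte, 2 chondrocyte, 1 skeletal myoblast, 1 macrophage or osteoclast and 0 endothelial markers passed that limit. Their summed levels were 7.76 to 12.2 against 8.64 to 9.66 FPKM with metformin for the adipocyte list and 26.6 to 39.9 against 28.7 to 30.6 for the chondrocyte list. For the myoblast list they were 1.20 to 1.90 against 2.07 to 2.38 FPKM, with Myod1, Myog and Myf5 at 0, and for the endothelial list at most 0.131. The macrophage and osteoclast list, at 243 to 271 against 149 to 162 FPKM, was nearly all Ctsk, with Ptprc at most 6 reads and Acp5 at 0. The part of these shifts in the results below was not tested.

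Promoter sequences are shown first, for genes that moved in opposite directions, because Smad proteins and other factors of the pathway bind short DNA words. The reference table (RefSeq, GRCm38.p6) held a window for 5 of the 9 genes: Id2, Id3, Id4, Smad6 and Grem1. The stretches below run 5′ to 3′ on the strand of the gene, end at position -1 before the start site unless stated, and leave out annotated exons of the gene, which removed all of the Id3 stretch. Capitals mark GGCGCC (a GC-rich Smad word), GTCTG or its reverse complement CAGAC (a Smad word), GTCTAGAC (the palindromic Smad word, of which the Smad6 stretch holds the first 4 bases) and TGACG or CGTCA (a cyclic AMP response half-site).
Id2, chr12:25096254-25096342, minus strand, positions -250 to -162, inside the annotated span of the gene but outside its exons: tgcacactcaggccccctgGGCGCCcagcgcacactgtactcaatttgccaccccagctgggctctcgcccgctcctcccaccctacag
Smad6, chr9:64022060-64022309, minus strand: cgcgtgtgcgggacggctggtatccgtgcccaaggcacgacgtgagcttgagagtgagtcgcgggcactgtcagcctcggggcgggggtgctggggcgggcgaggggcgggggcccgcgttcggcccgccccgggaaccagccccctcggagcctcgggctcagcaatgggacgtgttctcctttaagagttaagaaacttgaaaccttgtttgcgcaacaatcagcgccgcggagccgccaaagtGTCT
Id4, chr13:48260866-48261115, plus strand: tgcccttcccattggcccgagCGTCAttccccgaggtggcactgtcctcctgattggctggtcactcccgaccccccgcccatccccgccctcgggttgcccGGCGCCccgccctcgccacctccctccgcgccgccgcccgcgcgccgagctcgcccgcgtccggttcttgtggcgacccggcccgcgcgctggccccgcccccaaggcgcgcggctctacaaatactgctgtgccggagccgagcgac
Grem1, chr2:113758649-113758898, minus strand: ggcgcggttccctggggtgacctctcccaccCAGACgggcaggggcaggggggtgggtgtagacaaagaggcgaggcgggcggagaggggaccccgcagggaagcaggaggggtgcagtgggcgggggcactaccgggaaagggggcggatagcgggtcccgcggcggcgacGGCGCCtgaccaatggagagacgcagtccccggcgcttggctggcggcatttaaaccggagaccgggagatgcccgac

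Both strands of the whole 300-base windows were searched, including the 50 bases after the start site. GGCGCC was in the windows of Id2 (first base at -231), Id4 (-148) and Grem1 (-78), thus both in a gene that rose and in genes that fell, and it is in 11.9% of all 32851 windows. The palindrome GTCTAGAC was, of the 5 windows, in that of Smad6 only, where it crosses the start site from -4 to 4, and it is in 0.213% of all windows. GTCTG was in the windows of Id3 and Grem1 (49.6% of all windows), and TGACG in those of Id3 and Id4 (20.8%), where the Id3 match at -170 overlaps the GTCTG match at -167. CCAAT, a general promoter word left in lower case, was in the windows of Id2, Id4, Smad6 and Grem1 (37.4% of all windows). The Id3 matches and the CCAAT matches of Id2 lie in annotated exons of these genes, in the bases left out of the printed stretches. A match is a run of letters, not a bound site, and these windows are short.

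With metformin the Id genes split into 3 that rose and 1 that fell. In bulk samples, a change in the RNA per cell and in the number of cells that express a gene cannot be told apart. Id2 (ENSMUSG00000020644, chromosome 12, 25093799 to 25097140, minus strand) had 2.88, 2.72 and 2.09 FPKM in the control samples and 24.4, 22.7 and 20.5 with metformin. The lowest metformin sample was far above the highest control. The mean went from 2.56 ± 0.417 (SD, n = 3) to 22.5 ± 1.99 (SD, n = 3), 8.80-fold, with a log2 fold change of 2.73 (standard error 0.12) on the scale of FPKM + 1. That scale understates the change of a low gene, and with a pseudocount of 0.1 the value was 3.10. The reads behind these values were 100 to 139 in the controls and 972 to 1204 with metformin. By log2 fold change Id2 stood at place 5 from the top of the 12681 tested genes.

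Id3 (ENSMUSG00000007872, chromosome 4, 136143497 to 136145755, plus strand) had the highest mean level of the Id genes in both groups, although Id4 was above it in control replicate 3. It had 31.5, 33.2 and 26.8 FPKM in the controls and 159, 155 and 154 with metformin, without overlap. The mean rose 5.11-fold, from 30.5 ± 3.31 to 156 ± 3.05 FPKM (SD, n = 3 each), a log2 fold change of 2.32 (standard error 0.10) and place 43 from the top. Id1 (ENSMUSG00000042745, chromosome 2, 152736251 to 152737410, plus strand) had 18.2, 22.2 and 18.8 FPKM in the controls and 50.8, 55.1 and 51.0 with metformin. The groups again did not overlap. Id1 rose 2.65-fold in the mean, from 19.7 ± 2.17 to 52.3 ± 2.43 FPKM (SD, n = 3 each), with a log2 fold change of 1.37 (standard error 0.10). Of these 3 genes, the gene with the lowest level in the controls, Id2, had the largest fold and Id1 the smallest.

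Id4 went the other way. Its protein has the same helix-loop-helix domain, and it is known to pair with other Id proteins as well. Id4 (ENSMUSG00000021379, chromosome 13, 48261228 to 48266026, plus strand) had 26.4, 30.9 and 31.5 FPKM in the controls and 20.6, 18.3 and 19.5 with metformin, so every metformin sample was below every control. The mean fell from 29.6 ± 2.79 to 19.5 ± 1.14 FPKM (SD, n = 3 each), with a log2 fold change of -0.58 (standard error 0.10), and was 1.52-fold higher without metformin. Its call was lost only without metformin replicate 2, where the value was -0.53. Control replicate 1 had the lowest Id4 level of the controls, and without it the log2 fold change was -0.65. Id4 overlaps A330033J07Rik and Gm49291 on the other strand, which had 2 to 19 and 0 to 2 reads per sample, against 1462 to 2495 for Id4. Whether counting used strand is not given in the sources used here. The other 8 members overlap no other gene of the table, and none of the 9 has a transcript of another gene at 95% identity over 200 bases.

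**Figure D1:**
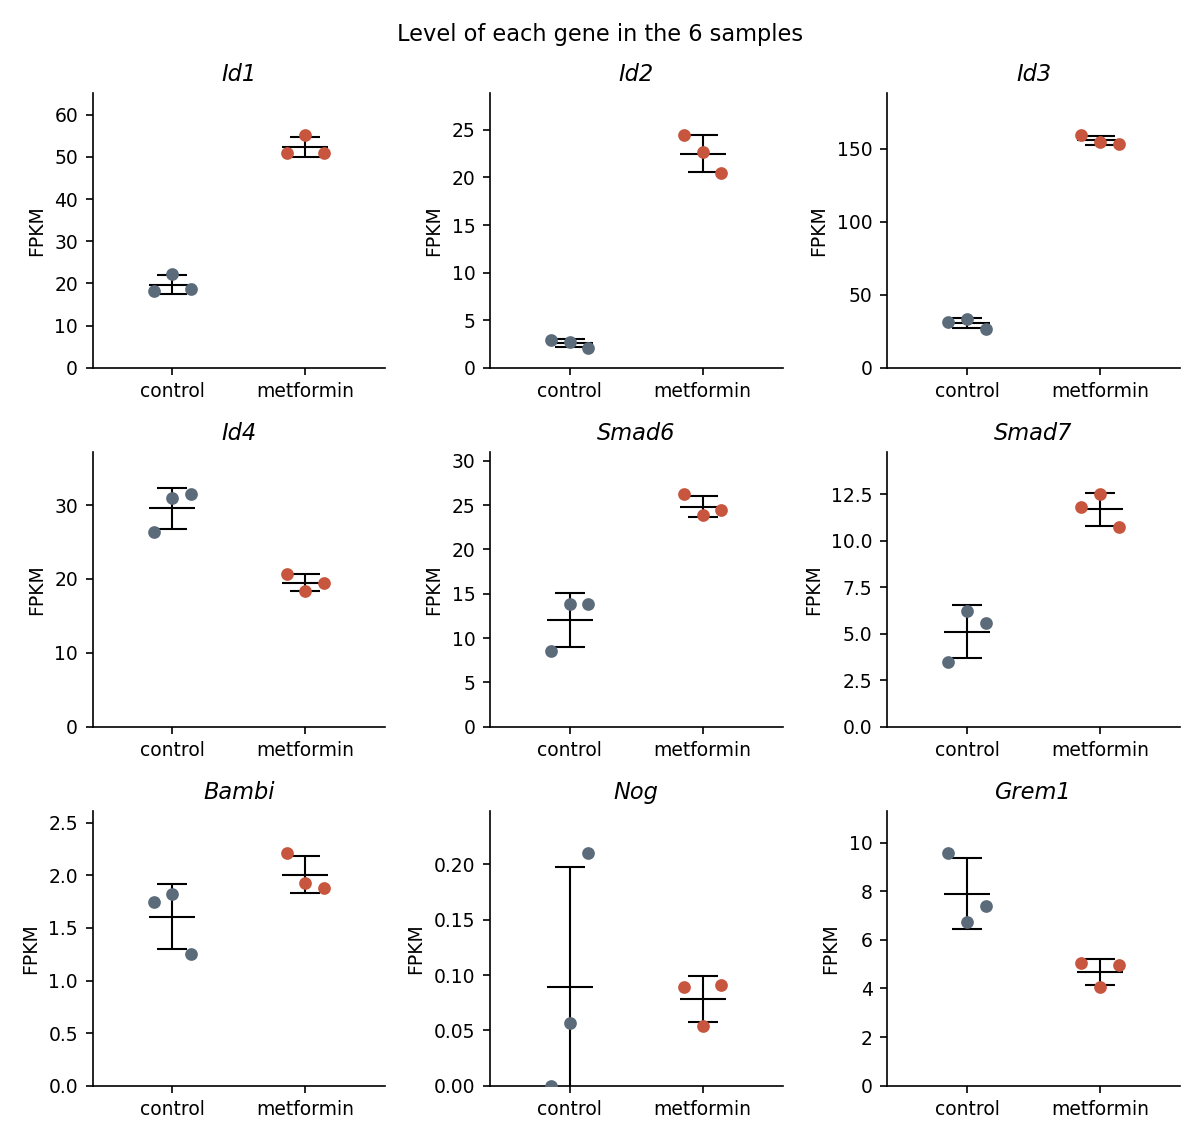
Level of each of the 9 genes in FPKM (vertical axes start at 0) in the 3 control samples and the 3 metformin samples, in order of replicate number from left to right. Points are samples, the long bar is the mean and the whiskers are 1 SD; the lower whisker of the Nog controls ends below 0 and is cut. Id1, Id2, Id3, Smad6 and Smad7 lie higher with metformin, Id4 and Grem1 lower, and Nog stays at or below 0.210 FPKM.

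The make-up of the Id family differed between the groups, with larger gains in Id3, Id1 and Id2 than the loss in Id4. Summed over the 4 genes, the level was 79.0, 89.1 and 79.2 FPKM in the controls and 255, 251 and 244 with metformin, a 3.04-fold difference of the means. Because FPKM is scaled by gene length, the levels of the 4 genes can be set beside each other. In the controls Id3 and Id4 held nearly equal shares, 37.1% ± 3.02 and 35.9% ± 3.35 (SD, n = 3), which do not differ beyond their spread, followed by Id1 with 23.9% ± 0.961 and Id2 with 3.11% ± 0.505. With metformin Id3 held 62.3% ± 0.552, Id1 20.9% ± 1.02, Id2 8.99% ± 0.602 and Id4 7.78% ± 0.421 (SD, n = 3). Thus the share of Id4 went from 33.4% to 39.7% across control samples to 7.30% to 8.07% across metformin samples. Id2 ranked last in each control sample and above Id4 in each metformin sample.

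**Figure D2:**
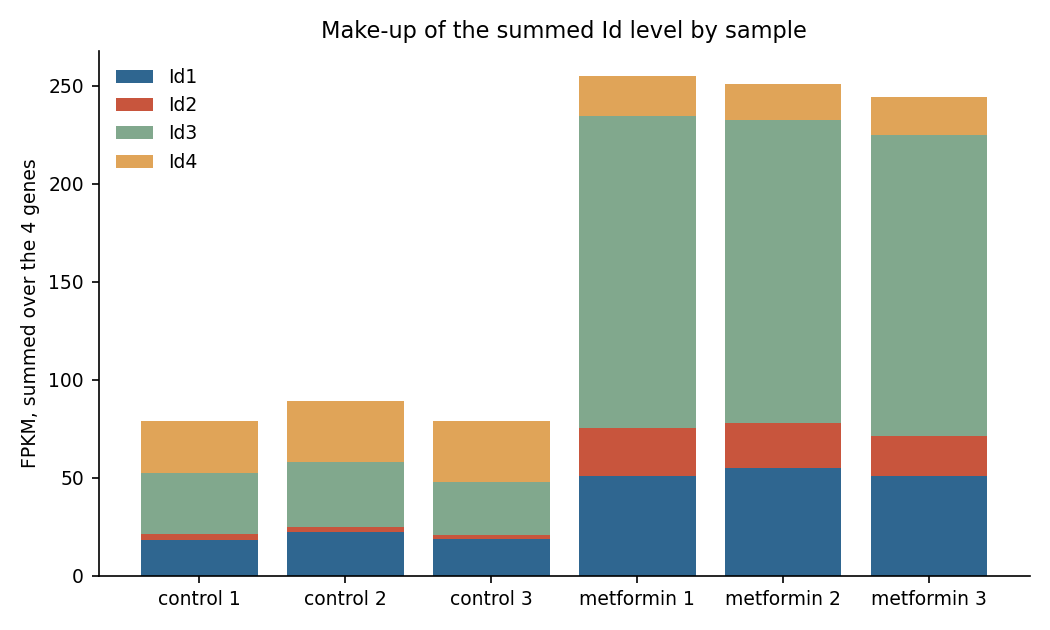
Stacked bars of the FPKM of Id1, Id2, Id3 and Id4 in each of the 6 samples (vertical axis from 0, summed FPKM). The sums are 79.0 to 89.1 FPKM in the controls and 244 to 255 with metformin; the Id1, Id2 and Id3 segments are larger with metformin and the Id4 segment is smaller.

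The E proteins Tcf3, Tcf4 and Tcf12, the partners that Id proteins hold off DNA, were set beside the Id sum. Their summed level was 28.0, 34.8 and 41.2 FPKM in the controls and 48.0, 47.3 and 47.8 with metformin. Tcf3, which was not called, made up most of this sum in each sample. It had 14.7, 23.2 and 29.6 FPKM in the controls and 36.2, 34.6 and 35.0 with metformin. Tcf4 went the other way, from a mean of 4.11 to 3.01 FPKM. The ratio of summed Id to summed E protein RNA was 2.82, 2.56 and 1.92 in the controls and 5.31, 5.30 and 5.11 with metformin, without overlap. Control replicate 1 had the highest ratio of the controls, so the groups lie farther apart without it. Counting only the 3 Id genes that rose, the ratio was 1.88, 1.67 and 1.16 in the controls and 4.88, 4.92 and 4.71 with metformin. These are ratios of RNA levels, and the proteins were not measured here.

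Both inhibitory Smad genes were called higher with metformin. Smad6 (ENSMUSG00000036867, chromosome 9, 63953076 to 64022059, minus strand), which acts mainly against BMP receptor signalling, had 8.58, 13.8 and 13.8 FPKM in the controls and 26.2, 23.9 and 24.5 with metformin. Control replicate 1 was the lowest, and the groups did not overlap. The mean rose 2.06-fold, from 12.1 ± 3.02 to 24.9 ± 1.23 FPKM (SD, n = 3 each), a log2 fold change of 1.01 (standard error 0.18). Smad7 (ENSMUSG00000025880, chromosome 18, 75367529 to 75395935, plus strand), which acts on both the BMP and the TGF-beta branch, had 3.49, 6.21 and 5.59 FPKM in the controls and 11.8, 12.5 and 10.7 with metformin. Control replicate 1 was again the lowest. The mean rose 2.29-fold, from 5.10 ± 1.43 to 11.7 ± 0.892 FPKM (SD, n = 3 each), a log2 fold change of 1.08 (standard error 0.18).

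The GC content of the longest transcript was 60.8% for Smad6 and 56.9% for Smad7, and GC-rich genes were lower in control replicate 1; the part of this in their values was not tested directly. Without that sample the folds of the means were 1.80 for Smad6 and 1.98 for Smad7, with log2 fold changes of 0.80 and 0.88, and with a GC correction in each library they were 0.92 and 1.02. Both genes were called higher in each of these fits. The ratio of Smad6 to Smad7 was 2.38 ± 0.136 in the controls and 2.14 ± 0.199 with metformin (SD, n = 3 each), with overlapping groups, and it was 2.46 in control replicate 1. Against the Smads that carry the BMP signal, the summed level of Smad6 and Smad7 was 0.623, 1.15 and 1.10 times that of Smad1, Smad5 and Smad9 in the controls and 1.94, 1.82 and 1.82 times with metformin. The sum of Smad1, Smad5 and Smad9 itself was 17.4 to 19.4 FPKM in the controls and 19.3 to 20.0 with metformin.

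Of the members that act at or outside the membrane, Bambi and Grem1 were tested, and neither was called higher. Bambi (ENSMUSG00000024232, chromosome 18, 3507957 to 3516404, plus strand) had 1.75, 1.83 and 1.25 FPKM in the controls and 2.21, 1.93 and 1.88 with metformin. All metformin samples lay above the controls, but the nearest pair, 1.83 and 1.88 FPKM, was separated by less than the spread within either group. Its log2 fold change was 0.21 (standard error 0.12) and it was not called. Grem1 (ENSMUSG00000074934, chromosome 2, 113746164 to 113758646, minus strand) had 9.56, 6.75 and 7.41 FPKM in the controls and 5.03, 4.07 and 4.96 with metformin, all below the controls. The mean fell from 7.90 ± 1.47 to 4.69 ± 0.535 FPKM (SD, n = 3 each), with a log2 fold change of -0.64 (standard error 0.14), and was 1.69-fold higher without metformin. Grem1 kept its call in 3 of the 6 fits without a replicate. It was lost without metformin replicate 1, 2 or 3, at log2 fold changes of -0.68, -0.56 and -0.67. Control replicate 1 had the highest Grem1 level, and without it the log2 fold change was -0.51 and the call held. Nog (ENSMUSG00000048616, chromosome 11, 89300638 to 89302332, minus strand) was at the limit of detection at this depth, with 0, 2 and 7 reads in the controls and 3, 2 and 3 with metformin. It was under the limit on low values, was not tested, and no difference was detectable.

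Of the 9 members, 8 passed the limit of 0.5 mean FPKM and were tested, and each of these 8 was above it in every sample of both groups, Bambi being the lowest at 1.25 FPKM. By limma-trend at an adjusted p-value under 0.05, 5 of the 8 were called higher, where 13.2% of all tested genes were, and 2 were called lower, where 9.28% of all tested genes were. Every metformin sample was above every control for 6 of the 8 (23.6% of all tested genes) and below for 2 (20.5%). The median log2 fold change was 1.05 over the 8 and 0.0053 over all tested genes. Since the members were selected on this contrast, nothing is read from these counts or from the medians. Over 13 alternative fits per gene, no log2 fold change changed sign, and Id1, Id2, Id3, Smad6 and Smad7 were called higher in all of them. These fits reuse the samples on which the members were selected. They show only how the calls depend on the processing and add no support to them. With the GC correction, 2062 genes of the whole table were called higher and 2434 lower, in place of 1670 and 1177.

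**Figure D3:**
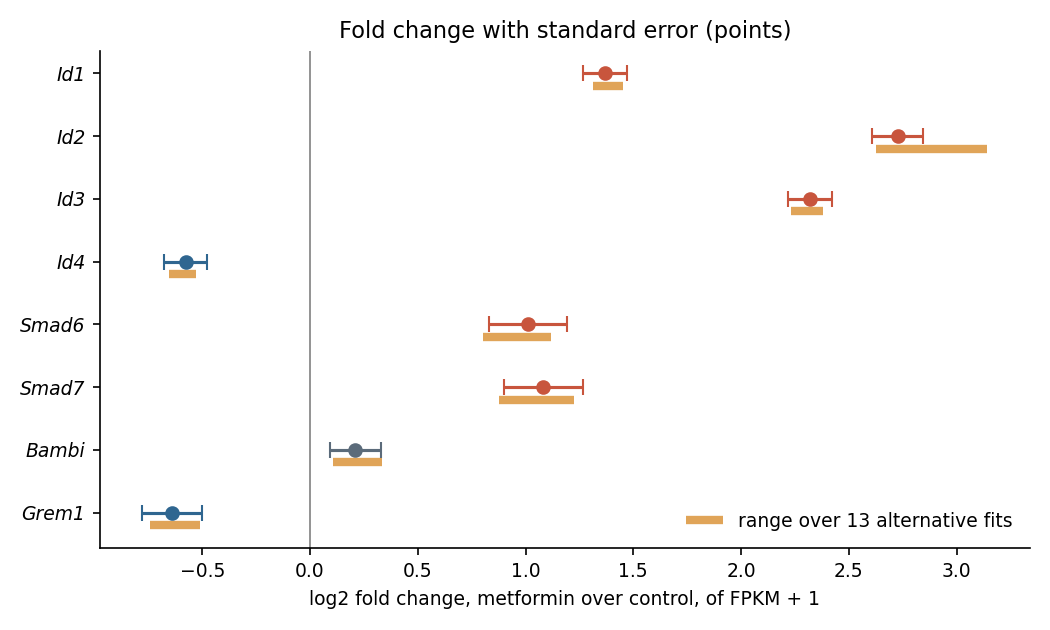
Log2 fold change of FPKM + 1, metformin over control, for the 8 tested genes (horizontal axis). Points with bars are the estimate and its standard error from limma-trend with all 6 samples, red for called higher, blue for called lower and grey for not called; the orange band is the range over 13 alternative fits. Id2 reaches 2.73 and Id3 2.32, while Id4 and Grem1 lie at -0.58 and -0.64, and no band crosses 0.

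The genes whose profile over the 6 samples was most like that of a member were found by the root mean square difference of centred log2(FPKM + 1), which weighs the size of the change as well as its direction. For Id2 they were Ptn, Ckap2l and Uhrf1, at 0.0790 to 0.109. For Id3 they were Kif4, Lmnb1 and Tacc3, at 0.0820 to 0.0877, and for Id1 they were Pola2, Tubb5 and Nrm, at 0.0597 to 0.0785. For Id4 they were Hexim1, Gsto1 and Kat8, at 0.0325 to 0.0528. For Smad6 they were Plaur, Fscn1 and Arhgap33, at 0.0613 to 0.0661, and for Smad7 Csrnp1, Slc25a10 and Cnn2, at 0.0383 to 0.0741. For Grem1 they were Ly96, Phospho2 and Zfp945, at 0.0473 to 0.0637, and for Bambi Zfp619, Pros1 and Tbca, at 0.0347 to 0.0357. No member was among the nearest 3 of another member. Nearness in this measure depends in large part on the fold change, the contrast on which the members were selected. The neighbours of Id1, for example, had log2 fold changes of 1.41 to 1.44, beside 1.37 for Id1. Nothing is therefore read from these neighbours.

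The rest of the pathway was described from lists of 66 other genes, of which 44 were tested. The lists were chosen with earlier results of these data known, so the p-values of their genes are no independent support. Of these, 6 were called higher and 6 lower by limma-trend (13.6% each, beside 13.2% and 9.28% of all tested genes), with a median log2 fold change of -0.11. Among 10 ligand genes, 3 were tested. Bmp4, a main BMP ligand of osteoblasts, had 13.9, 16.7 and 16.2 FPKM in the controls and 59.2, 58.9 and 58.6 with metformin. Its log2 fold change was 1.85 (standard error 0.09, limma adjusted p = 8.13e-05). Gdf6, another BMP ligand, fell from 31.6 ± 2.94 to 12.4 ± 0.260 FPKM (SD, n = 3 each), with a log2 fold change of -1.28 (limma adjusted p = 0.000240). Bmp2, Bmp3, Bmp5 and Bmp7 had 0 reads in every sample. Bmp4 overlaps Gm15222 and Gm15217 on the other strand, which had at most 62 and 13 reads, against 572 to 2886 for Bmp4.

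Of 7 tested receptors and co-receptors 0 were called higher and 1 lower, beside 13.2% and 9.28% of all tested genes, so nothing is read from this count. Rgma, a co-receptor, was called lower at -0.39 (limma adjusted p = 0.0178). Its call held in 2 of the 6 fits without a replicate and with the GC correction, but not with the replicate block. Rgma shares 258 identical bases with A730056A06Rik, which had at most 2 reads. Of the 4 signal-carrying Smads, Smad9 rose from 1.20 ± 0.173 to 2.79 ± 0.0762 FPKM (SD, n = 3 each), a log2 fold change of 0.79 (limma adjusted p = 0.00172). The fold of its means was 2.33, and 2.54 without control replicate 1. Smad1, Smad5 and Smad4 had log2 fold changes of -0.0060, 0.012 and -0.032, each smaller than its standard error of 0.08 to 0.12. Smad9 is a known BMP target as well as a weak carrier of its signal.

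Of 9 tested secreted antagonists outside the members, 1 was called higher and 1 lower. This is 11.1% each, beside 13.2% and 9.28% of all tested genes, so nothing is read from this count. Dand5 fell, at -0.58 (limma adjusted p = 0.0112), with its call held in 4 of the 6 fits without a replicate. Chrdl1, a chordin-like antagonist, was called higher at 0.93 (limma adjusted p = 0.0469). Its control values were 147, 85.6 and 68.5 FPKM and its metformin values 181 to 183, and of the 6 fits without a replicate only that without control replicate 1 kept the call, with a fold of the means of 2.36 in place of 1.81. The other 7 tested antagonists, Chrd, Fst, Fstl1, Fstl3, Twsg1, Nbl1 and Bmper, were not called.

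Of the 8 tested intracellular inhibitors other than Smad6 and Smad7, 0 were called higher and 1 lower, beside 13.2% and 9.28% of all tested genes. Pmepa1 was called lower, at -0.34 (limma adjusted p = 0.0226). The call held in 2 of 6 fits without a replicate and with the GC correction, but not with the replicate block. The Pmepa1 protein dampens TGF-beta signalling. Skil, a repressor of Smad complexes, had a log2 fold change of -0.36 and was not called. Among the 8 tested transcription factors that BMP is known to induce, 3 were called higher and 1 lower. These are 37.5% and 12.5%, beside 13.2% and 9.28% of all tested genes. The list is short and was chosen with earlier results known, so nothing is read from the count. Atoh8 had 2.71, 4.32 and 3.49 FPKM in the controls and 19.5, 19.0 and 17.2 with metformin, a log2 fold change of 2.13 (limma adjusted p = 0.000193). Msx2, a low gene with 31 to 45 reads in the controls, rose 2.65-fold, from a mean of 0.594 to 1.57 FPKM. On the scale of FPKM + 1, which understates such a change, its log2 fold change was 0.69 (limma adjusted p = 0.00475). That of Dlx5 was 0.99 (limma adjusted p = 0.0246). The Dlx5 call held in 3 of 6 fits without a replicate, and its lowest value, 13.2 FPKM, was in control replicate 1, without which the fold of the means was 1.66 in place of 1.96. Dlx3 was called lower, at -0.82 (limma adjusted p = 0.0214), a call that, of the 6 fits without a replicate, held in that without control replicate 1 (metformin at 0.375 times the control mean, in place of 0.438). The Dlx3 call also held with the replicate block and after GC correction. Runx2, Sp7, Msx1 and Tbx3 were not called. Among 5 tested partners of the Id proteins, 0 were called higher and 1 lower, beside 13.2% and 9.28% of all tested genes. Tcf4 was called lower, at -0.35 (limma adjusted p = 0.0418). The Tcf4 call held in the fit without control replicate 1 (metformin at 0.776 times the control mean, in place of 0.733) but in no other fit without a replicate. It held with the GC correction but not with the replicate block. Tcf3, Tcf12, Twist1 and Scx were not called. The calls of Bmp4, Gdf6, Smad9, Msx2 and Atoh8 held in all 6 fits.

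**Figure D4:**
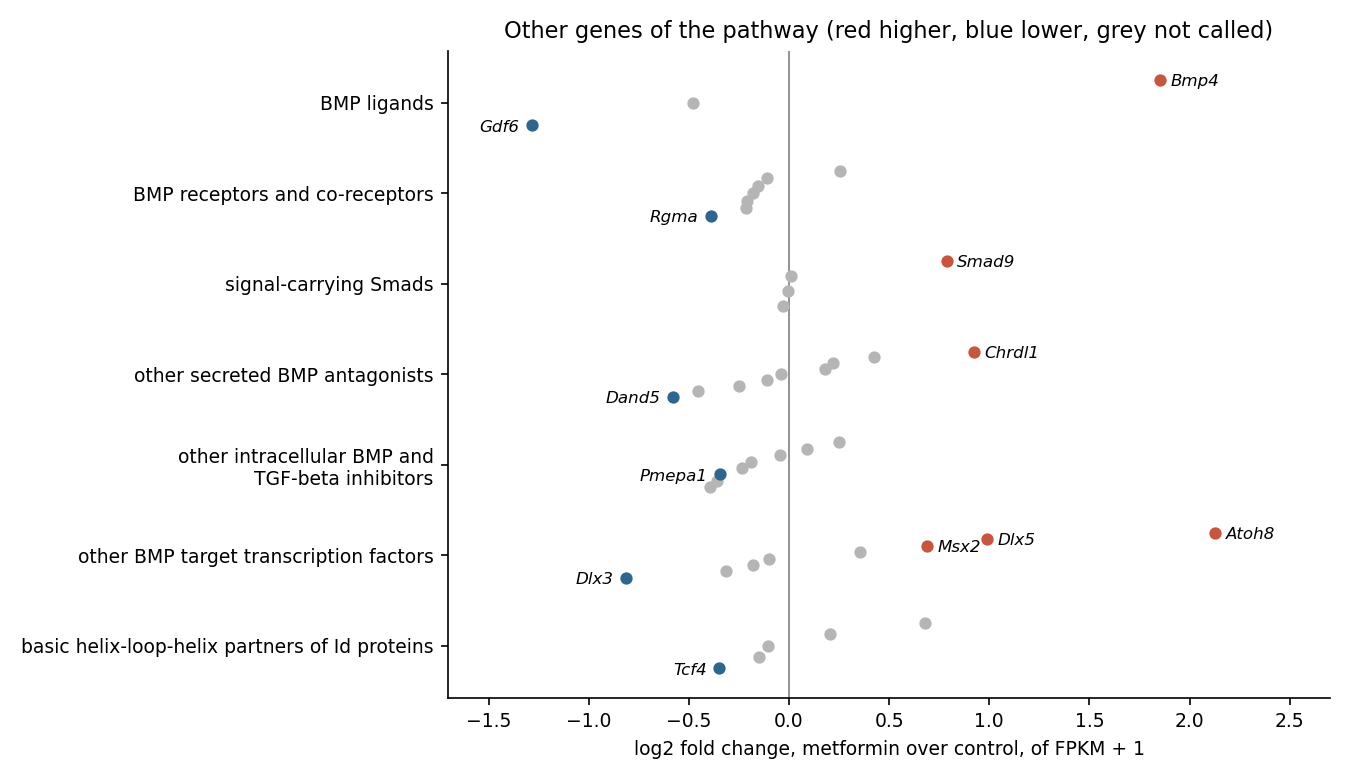
Log2 fold change of FPKM + 1, metformin over control, of the tested genes of each pathway list (horizontal axis; lists on the vertical axis, small vertical offsets only separate the points). Red points were called higher and blue lower by limma-trend and are named, and grey points were not called. Atoh8 and Bmp4 lie farthest to the right, at 2.13 and 1.85, and Gdf6 farthest to the left, at -1.28.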

How the data were processed

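RNA sequencing was performed on 3 control and 3 metformin samples. The authors deposited 1 table that lists, for every gene, its length and 6 normalized values, with no unit named. Value times length was a whole multiple (within 0.01) of 1 step per sample for 100% of values above 0, so the deposited values are FPKM on an effective library size, and reads were recovered from them. There were 0 other sample columns. The submitters' processing notes name Bowtie 0.12.2 and builds mm8 and mm9 with no role, whereas 98.1% of gene identifiers have the coordinates of GENCODE M21 (GRCm38). The counting tool is not given in the sources used here. The authors used DESeq2 for their own comparison.

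Groups were compared with limma 3.58.1 (R 4.3.3), with an intensity trend. Values were taken as log2(FPKM + 1) for 12681 genes, those whose mean FPKM reached 0.5, with Benjamini-Hochberg adjustment over all of them and a threshold of 0.05. The members and lists were chosen with earlier results of these data known. All 9 members are named. The lists and their counts leave out 1 gene, which is not reported here, and 65 of their 66 genes were in the table. From each list the called genes are named, up to 4, with some others chosen after their values were seen, and the 3 genes most like each tested member are given. Replicate numbers come from the labels, and same-numbered samples did not deviate together (correlations across genes of -0.053, 0.00027 and -0.055). Alternatives were a pseudocount of 0.1, no filter, at least 10 reads in every sample, scaling by total reads, voom on recovered reads, the replicate block, a GC correction (spline with 5 degrees of freedom, GC known for 99.9% of tested genes) and leaving out each replicate. No pair of libraries differed by as little as sampling noise (median chi-square per gene at least 1.14). Similar transcripts were searched with BLAST+ 2.17.0. The main and voom fits were also run on simulated counts with the same spread for all genes and no outlying library. That run cannot show how the fits handle a library such as control replicate 1.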

Additional observations from a re-analysis of the deposited data

How the results depend on the processing

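The members called higher were 5 in each of the 13 alternatives, and those called lower were 2 in each alternative that kept all samples and 0 to 2 in the 6 fits without a replicate (0 without metformin replicate 2). Of 104 log2 fold changes of members under the alternatives, 100 kept their direction and their side of the threshold, 4 lost the call and 0 changed sign. With the replicate block, genes called higher and lower over the whole table were 1161 and 698 and the other pathway genes called lower were 3; the block changed no call of a member. With the GC correction 2434 genes and 13 other pathway genes were called lower, and it moved all log2 fold changes by a median of -0.054. Without a replicate, genes called higher ranged from 938 to 2969 and lower from 495 to 2590, and other pathway genes called higher from 4 to 11 and lower from 1 to 14. The highest counts were those without control replicate 1, and the cause was not tested. The fold of the summed Id level was 2.97 to 3.17 without a replicate and 2.98 with scaling by total reads, both computed after seeing the data. Of the members only Nog was limited by depth.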

Other observations

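Hey1, a transcription factor gene known as a target of both Notch and BMP signalling, was under the limit on low values and was not tested. It had 2, 3 and 15 reads in the controls and 35, 45 and 49 with metformin. Sostdc1, a secreted antagonist of BMP and Wnt ligands, was also under that limit, with 20, 19 and 18 reads in the controls and 6, 12 and 6 with metformin. In both genes the groups did not overlap. Of all tested genes, 23.6% had every metformin sample above every control and 20.5% below. Acvrl1, a BMP receptor gene, was also under that limit, and its groups did not overlap either. It had 3, 8 and 12 reads in the controls and 0, 0 and 2 with metformin. These genes were singled out after their values were seen, so nothing is read from them.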
